A study of Mus musculus with 12 samples.

Results

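The genes described here are 10 genes of the Atf4 stress response and of serine synthesis, followed in mouse embryonic stem (ES) cells after knockdown (KD) of factors that write, oxidise or read DNA methylation. The transcription factor genes are Atf4, Atf3 and Ddit3 (which encodes CHOP). The stress genes downstream of them are Chac1, Trib3, Asns and Vldlr, and the serine and one-carbon enzyme genes are Phgdh, Psat1 and Shmt2. The genes were chosen by name, and their probes were found through the transcript accession that each spot carries. All 10 were measured, by 14 probes, among 29839 genes tested on the arrays.

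The samples were 12 single-colour Agilent arrays of E14 mouse ES cells, a line grown here on gelatin without feeder cells, in serum with the self-renewal cytokine LIF. Every dish, controls included, was transfected with endoribonuclease-prepared siRNA and a cationic lipid and collected 48 hr later. The control siRNA was directed at EGFP (EGFP KD), and the others at Chd4, Mbd3, Dnmt1, Tet1 or Mbd2, with 2 arrays in each of the 6 groups. Chd4 is the remodelling ATPase of the NuRD complex, Mbd3 and Mbd2 are its alternative methyl-CpG-binding domain subunits, Dnmt1 maintains DNA methylation and Tet1 oxidises methylcytosine. No untransfected dish is among these arrays, so effects of transfection itself are part of every group. The methods call the replicates biological.

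Cells sense unfolded protein, amino acid shortage, heme shortage or double-stranded RNA through kinases that phosphorylate the translation factor eIF2. General translation then falls while Atf4 mRNA is translated more, and ATF4 protein binds C/EBP-ATF response elements (CARE) together with C/EBP proteins to switch on amino acid transport, amino acid synthesis and, under lasting stress, CHOP and its partners. Because ATF4 is controlled largely through translation, its mRNA is a poor measure of its activity, and its target genes are usually read in its place. Serine and glycine feed one-carbon metabolism, which supplies nucleotide precursors and methyl groups.

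The letters that ATF4 and its partners recognise, TGATGNAAN, were looked for on both strands of the promoter window of each gene, from 250 bases before to 50 bases after the transcription start, in RefSeq sequence of GRCm38.p6. The motif lay in a window of 5 of the 10 members, and in 4.5% of 27025 genes. The palindromic cyclic AMP response element TGACGTCA, which no stretch can match in place of the first motif, lay in no member's window and in 2.03% of genes. The stretches around the 5 matches are shown because they include Chac1 and Trib3, whose levels followed each other closely, and Atf3, the only member called against the control. Capitals mark the motif, and each stretch is written in the direction of its gene, so that a match on the opposite strand, as in all but Asns, appears as the reverse complement.
Chac1, chr2:119351002-119351101, plus strand: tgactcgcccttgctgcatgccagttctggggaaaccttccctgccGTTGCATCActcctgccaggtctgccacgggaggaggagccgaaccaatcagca
Trib3, chr2:152344039-152344138, minus strand: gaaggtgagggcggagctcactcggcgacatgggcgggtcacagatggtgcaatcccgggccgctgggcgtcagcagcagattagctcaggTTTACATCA
Atf3, chr1:191183391-191183490, minus strand: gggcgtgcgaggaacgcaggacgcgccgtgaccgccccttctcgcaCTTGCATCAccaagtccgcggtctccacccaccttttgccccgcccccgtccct
Vldlr, chr19:27216773-27216872, plus strand: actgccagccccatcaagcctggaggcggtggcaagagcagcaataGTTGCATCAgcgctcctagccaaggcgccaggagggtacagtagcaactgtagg
Asns, chr6:7693210-7693278, minus strand: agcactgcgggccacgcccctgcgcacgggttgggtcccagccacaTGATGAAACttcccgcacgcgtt

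Counted from the transcription start, the Asns match began at base -23, that of Atf3 at -111, that of Chac1 at -194 and that of Trib3 at 14, in the transcribed part. The Vldlr match, at -201, lay in only 1 of its 2 annotated promoter windows. Chac1 and Vldlr carried the same 9 letters, TGATGCAAC. No match was found in the windows of Atf4, Ddit3, Phgdh, Psat1 or Shmt2, which says only that these letters are not in these windows.

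The 12 arrays lay on 3 slides, 4 to a slide. Slide 1 held replicate 1 of the control and of Mbd3 KD, Mbd2 KD and Dnmt1 KD, slide 2 held both Tet1 KD arrays with Chd4 KD replicate 1 and EGFP KD replicate 2, and slide 3 held the second array of Chd4, Mbd2, Mbd3 and Dnmt1 KD, with no control. Between 76.9% and 95.2% of probes were well above background. The ES cell markers Pou5f1, Sox2, Nanog and 7 others had a summed log2 level between 7.33 and 7.71 on every array, and 9 of the 10 were well above background throughout. Mbd3, Dnmt1 and Chd4 were reduced on both arrays of their own KD. Tet1 and Mbd2 were reduced on only 1 array of theirs. Against the EGFP KD mean, 1 of the Tet1 probes read -1.81 on Tet1 KD replicate 2 but only -0.02 on the array with the label Tet1 KD replicate 1, and it read -1.78 where the label was Mbd2 KD replicate 1, while the other probe had the same pattern. Of the Mbd2 probes, 1 read -1.77 on Mbd2 KD replicate 2 but only -0.23 on the array with the label Mbd2 KD replicate 1, and it read -1.74 where the label was Tet1 KD replicate 1, while the other lay between -0.19 and -0.07 on these 3 arrays. The labels were kept as given, and the member differences in Tet1 KD and Mbd2 KD are also given without those 2 arrays.

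Levels below are log2 of the processed signal divided by the 75th percentile of the array, so that a difference of 1 is a doubling. A gene was called when its Benjamini-Hochberg adjusted p in limma, over all genes tested in that comparison, was under 0.05. The value of a gene is that of its brightest probe. For Atf4 and Asns that probe was saturated on all 12 arrays, so no fold was drawn from either, and 8 members remained with a measurable probe.

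Atf4 mRNA was followed through its second, dimmer probe, which was unsaturated and well above background on all 12 arrays. It read 0.90 and 0.71 in EGFP KD, 0.88 and 1.09 in Chd4 KD, 1.48 and 1.13 in Mbd2 KD, 1.18 and 1.28 in Mbd3 KD, 1.38 and 1.35 in Dnmt1 KD, and 1.06 and 0.41 in Tet1 KD. Both arrays of Mbd3 KD, Dnmt1 KD and Mbd2 KD were above both controls, while Tet1 KD and Chd4 KD overlapped them. None of these differences was called, the largest being 0.56 in Dnmt1 KD (SE 0.22, limma adjusted p = 0.948 over all probes). Asns, which makes asparagine, lay between 4.53 and 5.26 on all arrays, at the top of the scanner's range.

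Atf3, an early stress-induced repressor of the same family, was the only member called in any KD against EGFP KD, and it was also a dim gene. It read -3.10 and -3.12 in EGFP KD, -2.12 and -2.24 in Chd4 KD, -2.83 and -3.10 in Mbd2 KD, -1.86 and -2.36 in Mbd3 KD, -2.54 and -2.77 in Dnmt1 KD, and -2.97 and -2.91 in Tet1 KD. The arrays of Chd4 KD and Mbd3 KD stood above the other 8 arrays, and the controls and Mbd2 KD replicate 2 were the lowest. In Chd4 KD Atf3 rose by 0.93 (SE 0.18, 1.91-fold, limma adjusted p = 0.0425), and that was 1 of 10 members called where 3.17% of all genes were called. The difference in Mbd3 KD was 1.00 (SE 0.18) and was not called (limma adjusted p = 0.0738), and Chd4 KD against Mbd3 KD gave -0.07 (SE 0.18). The call in Chd4 KD was close to the threshold: it held in 8 of 25 alternative settings and was lost without any 1 array other than those of Mbd3 KD (differences of 0.87 to 0.99, adjusted p up to 0.189 with 1 array left out). Under normexp background correction of the raw signal the difference was -0.16 in Chd4 KD and -0.18 in Mbd3 KD (limma adjusted p = 0.878 and 0.849).

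Ddit3, which encodes the pro-apoptotic factor CHOP, read -0.41 and -0.58 in EGFP KD and was higher on each of the 10 KD arrays, from -0.30 in Tet1 KD replicate 2 to 0.30 in Dnmt1 KD replicate 1. The Dnmt1 KD arrays, at 0.30 and 0.15, were the highest pair. No difference was called. Dnmt1 KD exceeded EGFP KD by 0.72 (SE 0.12, 1.65-fold, limma adjusted p = 0.286), Mbd3 KD by 0.43 (SE 0.12, adjusted p = 0.231), and Chd4 KD by 0.27 (SE 0.12, adjusted p = 0.437).

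**Figure D1:**
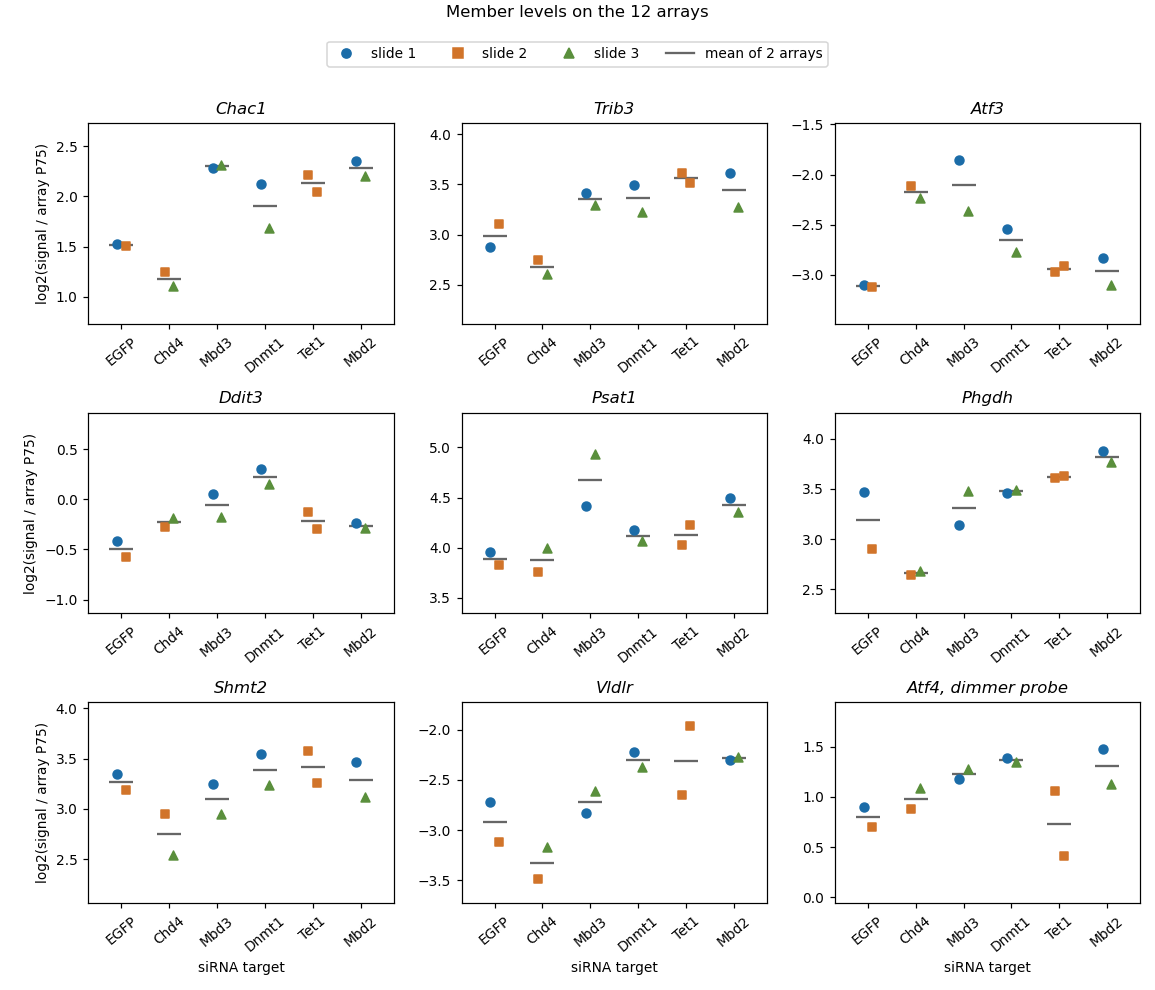
Log2 level (signal over the array's 75th percentile) of 8 members and of the dimmer Atf4 probe on the 12 arrays, by siRNA target, with colour and shape for the slide and a line for the mean of 2 arrays; every panel spans the same range of log2 units. Chac1 and Trib3 are higher on all 8 arrays of Mbd3, Dnmt1, Tet1 and Mbd2 KD than on the 4 arrays of EGFP and Chd4 KD, whereas Atf3 is highest in Chd4 and Mbd3 KD.

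Chac1, whose enzyme degrades glutathione and which is among the most responsive ATF4 and CHOP targets, was the member with the largest share of its variance between groups. It read 1.53 and 1.51 in EGFP KD, 1.25 and 1.11 in Chd4 KD, 2.35 and 2.21 in Mbd2 KD, 2.29 and 2.31 in Mbd3 KD, 2.12 and 1.68 in Dnmt1 KD, and 2.21 and 2.04 in Tet1 KD. All 8 arrays of Mbd3 KD, Dnmt1 KD, Tet1 KD and Mbd2 KD lay above both controls, and both Chd4 KD arrays lay below them. By group mean, the order was Chd4 KD (1.18 ± 0.09, SD, n = 2), EGFP KD (1.52 ± 0.01), Dnmt1 KD (1.90 ± 0.31), Tet1 KD (2.13 ± 0.12), Mbd2 KD (2.28 ± 0.10) and Mbd3 KD (2.30 ± 0.02). From Dnmt1 KD upwards each neighbour overlapped the next, while Chd4 KD, EGFP KD and Dnmt1 KD did not overlap.

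Against EGFP KD the Chac1 difference was 0.78 in Mbd3 KD (SE 0.15, 1.72-fold, limma adjusted p = 0.0884), 0.76 in Mbd2 KD, 0.61 in Tet1 KD, 0.38 in Dnmt1 KD and -0.34 in Chd4 KD. None was called, and the adjusted p was 1 in Tet1 KD and Mbd2 KD, 0.943 in Dnmt1 KD and 0.422 in Chd4 KD. Without the 2 arrays with a doubtful label, Chac1 still stood above EGFP KD by 0.69 in Mbd2 KD and by 0.53 in Tet1 KD, each then on 1 array assumed to vary as the other groups do.

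Trib3, a pseudokinase that feeds back on the same pathway, followed Chac1 closely, with a Pearson's r of 0.907 over the 12 arrays, which share groups and slides. It read 2.87 and 3.11 in EGFP KD, 2.75 and 2.61 in Chd4 KD, 3.62 and 3.28 in Mbd2 KD, 3.42 and 3.29 in Mbd3 KD, 3.49 and 3.23 in Dnmt1 KD, and 3.62 and 3.51 in Tet1 KD. As with Chac1, the Chd4 KD arrays were the lowest and the controls next. The difference from EGFP KD was largest in Tet1 KD, at 0.58 (SE 0.16, 1.49-fold, limma adjusted p = 1), and it was 0.46 in Mbd2 KD, 0.37 in Dnmt1 KD, 0.36 in Mbd3 KD and -0.31 in Chd4 KD, none of them called.

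Vldlr, an apolipoprotein E and reelin receptor that ATF4 can induce, was dim. It read -2.72 and -3.12 in EGFP KD, -3.49 and -3.17 in Chd4 KD, -2.30 and -2.27 in Mbd2 KD, -2.83 and -2.61 in Mbd3 KD, -2.22 and -2.38 in Dnmt1 KD, and -2.65 and -1.96 in Tet1 KD. Dnmt1 KD, Tet1 KD and Mbd2 KD lay above both controls, by 0.62, 0.61 and 0.64 (SE 0.25, limma adjusted p = 0.943, 1 and 1), Mbd3 KD overlapped them and Chd4 KD lay below. Its second probe was well above background on no array and gave no value.

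The serine pathway begins with Phgdh, which draws 3-phosphoglycerate out of glycolysis, and continues with the aminotransferase Psat1, and Shmt2 turns serine into glycine and a one-carbon unit in mitochondria. Phgdh read 3.47 and 2.90 in EGFP KD, 2.65 and 2.68 in Chd4 KD, 3.88 and 3.77 in Mbd2 KD, 3.14 and 3.48 in Mbd3 KD, 3.46 and 3.49 in Dnmt1 KD, and 3.61 and 3.63 in Tet1 KD. The 2 controls differed by 0.57, more than the 2 arrays of any other group, and Chd4 KD lay below both. Its second probe read 3.30 and 3.27 in EGFP KD and 2.62 and 2.45 in Chd4 KD, a difference of -0.75 (SE 0.22, limma adjusted p = 0.157 over all probes) against -0.52 (SE 0.19, adjusted p = 0.276) for the brighter probe.

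Psat1 read 3.96 and 3.83 in EGFP KD, 3.76 and 4.00 in Chd4 KD, 4.50 and 4.36 in Mbd2 KD, 4.41 and 4.94 in Mbd3 KD, 4.18 and 4.06 in Dnmt1 KD, and 4.03 and 4.22 in Tet1 KD. It was the third member with all 8 of those arrays above the 4 of EGFP KD and Chd4 KD, though only by 0.03 between 4.00 and 4.03. The difference in Mbd3 KD was 0.78 (SE 0.18, 1.72-fold, limma adjusted p = 0.154), and the dimmer of its probes gave 0.63 (SE 0.26). With the dimmer probe the separation did not hold, since Dnmt1 KD replicate 2 read 0.02 and Chd4 KD replicate 2 read 0.68.

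Shmt2 read 3.34 and 3.19 in EGFP KD, 2.95 and 2.55 in Chd4 KD, 3.47 and 3.12 in Mbd2 KD, 3.25 and 2.95 in Mbd3 KD, 3.55 and 3.23 in Dnmt1 KD, and 3.58 and 3.26 in Tet1 KD. The difference from the controls was largest in Chd4 KD, at -0.52 (SE 0.21, limma adjusted p = 0.374).

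Over the 10 members, Chd4 KD stood apart from the other 4 KDs in the direction of most differences from EGFP KD. Both arrays were above both controls for 7 members in Mbd2 KD (10.8% of all genes), 7 in Tet1 KD (23.1%), 6 in Dnmt1 KD (10.9%) and 5 in Mbd3 KD (13%), and no member was below both in any of these, where 11.8%, 11.9%, 9.99% and 16.9% of all genes were. In Chd4 KD 2 members, Atf3 and Ddit3, were above both controls (19.2% of all genes) and 5, Chac1, Trib3, Vldlr, Phgdh and Shmt2, were below both (18.6%). All of these comparisons share the same 2 control arrays. The 3 members with all 8 arrays of Mbd3 KD, Dnmt1 KD, Tet1 KD and Mbd2 KD above the 4 of EGFP KD and Chd4 KD, Chac1, Trib3 and Psat1, stand beside 66 of all 29839 genes (0.221%). This split of the arrays was not planned and follows the levels of these members themselves, so the share describes it and does not test it. Leaving out the 2 arrays with a doubtful label, which can only widen such a separation, 3 members and 0.392% of all genes had it. At the adjusted threshold no member was called in Mbd3 KD (0.771% of all genes), Dnmt1 KD, Tet1 KD or Mbd2 KD (0% in each). At an unadjusted limma p under 0.05, the members were 5 in Mbd2 KD (1.06% of all genes higher), 3 in Tet1 KD (1.95%), 5 in Dnmt1 KD (3.39%) and 4 in Mbd3 KD (4.33%), all higher, and 1 higher (6.47%) and 2 lower (6.32%) in Chd4 KD. The median difference over the 8 measurable members was -0.33 in Chd4 KD, 0.50 in Mbd2 KD, 0.36 in Tet1 KD, 0.38 in Dnmt1 KD and 0.40 in Mbd3 KD, beside 0.00, 0.00, 0.09, -0.01 and -0.04 over all genes. Without the 2 arrays with a doubtful label, the median difference was 0.376 in Mbd2 KD and 0.385 in Tet1 KD. The single Mbd2 KD array that remained was above both controls for 8 members (36.6% of all genes), Asns at saturation among them, and below both for Shmt2 (32.9%), and the single Tet1 KD array was above both for 7 (42.2%) and below both for 0 (21.1%). The differences in Mbd2 KD were then 0.01 for Atf3, 0.21 for Ddit3, 0.69 for Chac1, 0.29 for Trib3, 0.46 for Psat1, 0.58 for Phgdh, 0.65 for Vldlr and -0.15 for Shmt2. Those in Tet1 KD were 0.20, 0.20, 0.53, 0.52, 0.33, 0.44, 0.96 and -0.01 in the same order, and the dimmer Atf4 probe gave 0.33 in Mbd2 KD and -0.39 in Tet1 KD.

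**Figure D2:**
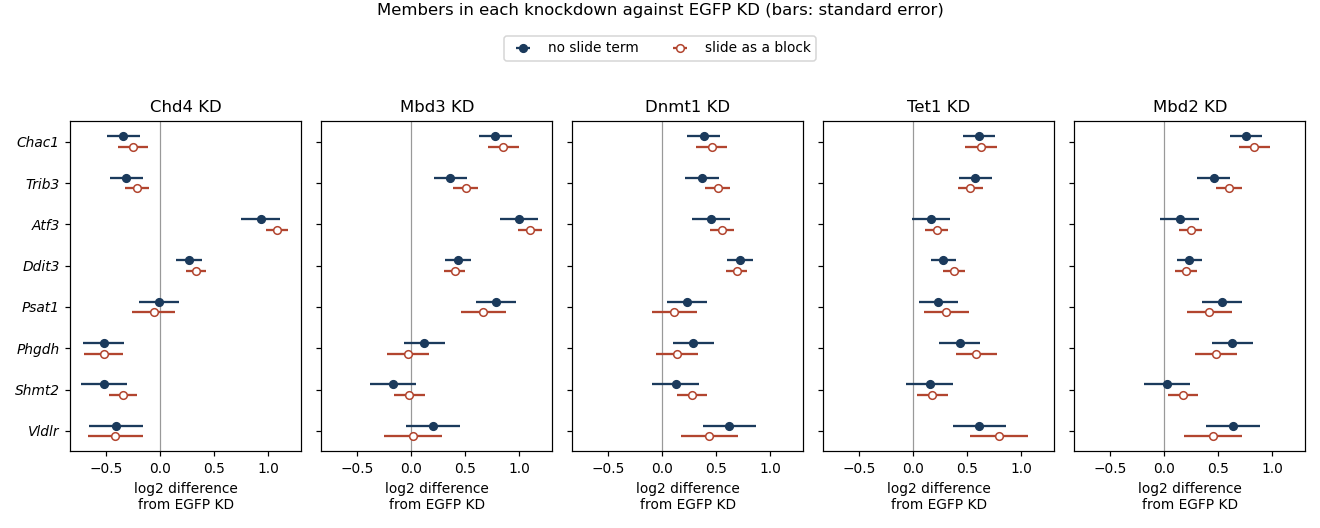
Log2 difference of 8 members from EGFP KD in each KD (2 arrays against 2), with bars for the standard error of the limma fit; filled points are the fit on the 6 groups and open points the fit with slide as a block. Chac1 and Trib3 lie to the right of 0 in the 4 KDs of Mbd3, Dnmt1, Tet1 and Mbd2 and to the left in Chd4 KD in both fits, and Atf3 is near 1 in Chd4 KD and Mbd3 KD.

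The contrast between Chd4 KD and the other KDs takes its differences from the arrays of those groups alone, while the residual spread in its test comes from all 12 arrays, controls included, and it was added after the levels had been seen. With only the 4 arrays of a comparison in the fit, no member was called in any of them. Both Chd4 KD arrays lay below the 8 arrays of the other KDs for 6 members, Chac1, Trib3, Vldlr, Phgdh, Psat1 and Shmt2 (5.27% of all genes), and above them for 0 (5.75%). Shmt2 counts only by 2.947 in Chd4 KD replicate 1, on slide 2, against 2.953 in Mbd3 KD replicate 2, on slide 3. Psat1 also counts only narrowly (4.00 against 4.03) and only by its brighter probe. On the dimmer one Chd4 KD replicate 2 read 0.68 and Dnmt1 KD replicate 2 read 0.02. Chac1 was lower in Chd4 KD than in Mbd3 KD (difference -1.12, SE 0.15, limma adjusted p = 0.0197), Tet1 KD (-0.95, SE 0.15, adjusted p = 0.0229) and Mbd2 KD (-1.10, SE 0.15, adjusted p = 0.0115), and the difference from Dnmt1 KD was -0.72 (SE 0.15, adjusted p = 0.0608). Trib3 was lower than in Tet1 KD (-0.89, SE 0.16, limma adjusted p = 0.0329), and Phgdh than in Mbd2 KD (-1.16, SE 0.19, adjusted p = 0.0242). The members called were thus 1 against Mbd3 KD (1.46% of all genes called), 0 against Dnmt1 KD (2.62%), 2 against Tet1 KD (2.84%) and 2 against Mbd2 KD (3.07%). Without the 2 arrays with a doubtful label no member was called in any of these comparisons. Without either Chd4 KD array, or either array of Mbd3 KD or Tet1 KD, the comparison with that group held 0 member calls, and that with Mbd2 KD held 0 without either Chd4 KD array or Mbd2 KD replicate 1 and 1 without Mbd2 KD replicate 2 or either Tet1 KD array.

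Whether the members followed the siRNA or the slide was then examined. Among all genes, 31.9% were called between slide 3 and slide 1 and 7.71% between slide 2 and slide 1 in a model that also held the 6 groups. The members called were 2 for slide 3 against slide 1, Atf3 at -0.30 (SE 0.07, limma adjusted p = 0.0321) and Shmt2 at -0.35 (SE 0.09, adjusted p = 0.0433), both lower on slide 3, and 0 for slide 2 against slide 1. The second Phgdh probe was also lower on slide 3, at -0.38 (SE 0.08, limma adjusted p = 0.0218 over all probes), while the brighter Phgdh probe was not called. In that model Atf3 differed between Chd4 KD and EGFP KD by 1.08, more than between the slides, and Shmt2 by -0.34, about as much as between the slides. Of the variance of a gene over the 12 arrays, the median share lying between the 6 groups was 44.8% over all genes and the share between the 3 slides was 46.9%. For Chac1 the shares were 94% and 10.3%, for Atf3 90.3% and 4.43%, for Trib3 88.7% and 9.98%, and for Phgdh 87.8% and 9.18%. The second Phgdh probe gave 83% and 34%. The dimmer Atf4 probe gave 69.4% and 54.6%. Of the 8 measurable members, Shmt2 was nearest to the median gene, at 67.8% and 42.7%. Groups and slides overlap in part, so the shares do not add to a whole, and the larger number of groups alone gives them a larger share.

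**Figure D3:**
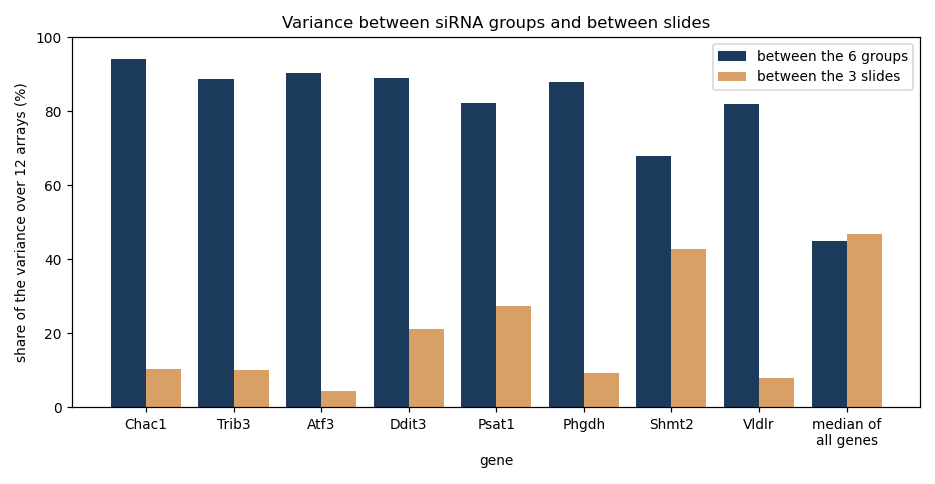
Share of the variance over 12 arrays (percent, vertical axis) that lies between the 6 siRNA groups (dark bars) and between the 3 slides (light bars), for 8 members and as the median of all genes. The dark bar is the higher for each of the 8 members, from 67.8% for Shmt2 to 94% for Chac1, while the median gene has 44.8% between groups and 46.9% between slides.

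Within a slide, Chac1 and Trib3 kept the directions of the group differences where a control was present. Against the EGFP KD array of slide 1, Chac1 was higher by 0.76 in Mbd3 KD, 0.59 in Dnmt1 KD and 0.82 in Mbd2 KD, and Trib3 by 0.54, 0.62 and 0.74. That Mbd2 KD array is replicate 1, whose label is doubtful. Mbd2 KD replicate 2 lay on slide 3, so it has no control on its own slide. Against the EGFP KD array of slide 2, Chac1 was higher by 0.705 and 0.54 in the Tet1 KD arrays and Trib3 by 0.51 and 0.41, and Chac1 and Trib3 were at -0.26 and -0.36 in Chd4 KD. Of these, 0.705 and 0.51 are from Tet1 KD replicate 1, whose label is doubtful. Atf3 exceeded the control of its own slide by 1.24 in Mbd3 KD and 1.00 in Chd4 KD. Vldlr in Mbd3 KD was at -0.11 against the control of its slide, where the group difference was 0.20. Phgdh did not keep 1 direction: it was at -0.33 and -0.01 in Mbd3 KD and Dnmt1 KD on slide 1 and at 0.71 and 0.72 in Tet1 KD on slide 2, whose control was the lower. Its second probe gave 0.09 and 0.49 in those Mbd3 KD and Dnmt1 KD arrays and -0.025 and 0.22 in the Tet1 KD arrays. Slide 3 held no control, and there Chd4 KD was lower than Mbd3 KD, Dnmt1 KD and Mbd2 KD, with differences of -1.20, -0.57 and -1.09 for Chac1 and -0.69, -0.62 and -0.67 for Trib3. These are differences of single arrays and carry no test.

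In the fit that also held slide as a block, the differences of Chac1 from EGFP KD were 0.86 in Mbd3 KD (SE 0.14, limma adjusted p = 0.0985), 0.83 in Mbd2 KD, 0.63 in Tet1 KD, 0.46 in Dnmt1 KD and -0.25 in Chd4 KD, and again none was called. All values for Mbd2 KD and Tet1 KD in this fit include the arrays with a doubtful label. Atf3 was called in Chd4 KD, at 1.08 (SE 0.10, limma adjusted p = 0.0121), where 4.33% of all genes were called with that block. Of the other calls in Chd4 KD, Chac1 against Tet1 KD (adjusted p = 0.0522) and Phgdh against Mbd2 KD (adjusted p = 0.0677) lost their call, and Trib3 gained calls against Dnmt1 KD (adjusted p = 0.0472) and Mbd2 KD (adjusted p = 0.0355). The second Phgdh probe went the other way against Mbd2 KD (limma adjusted p = 0.0254 over all probes, 0.0574 without the block). Against Dnmt1 KD it did so too (limma adjusted p = 0.0278 over all probes, 0.061 without the block). Atf3, higher in Chd4 KD, gained calls against Tet1 KD (0.87, limma adjusted p = 0.0276) and Mbd2 KD (0.84, adjusted p = 0.0288). By their brightest probes, the members called were then 1 against each of Mbd3 KD (1.25% of all genes) and Dnmt1 KD (3.32%), 2 against Tet1 KD (2.98%) and 3 against Mbd2 KD (3.45%). A difference between dishes of a culture that coincides with the siRNA cannot be told apart from the KD in these arrays.

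**Figure D4:**
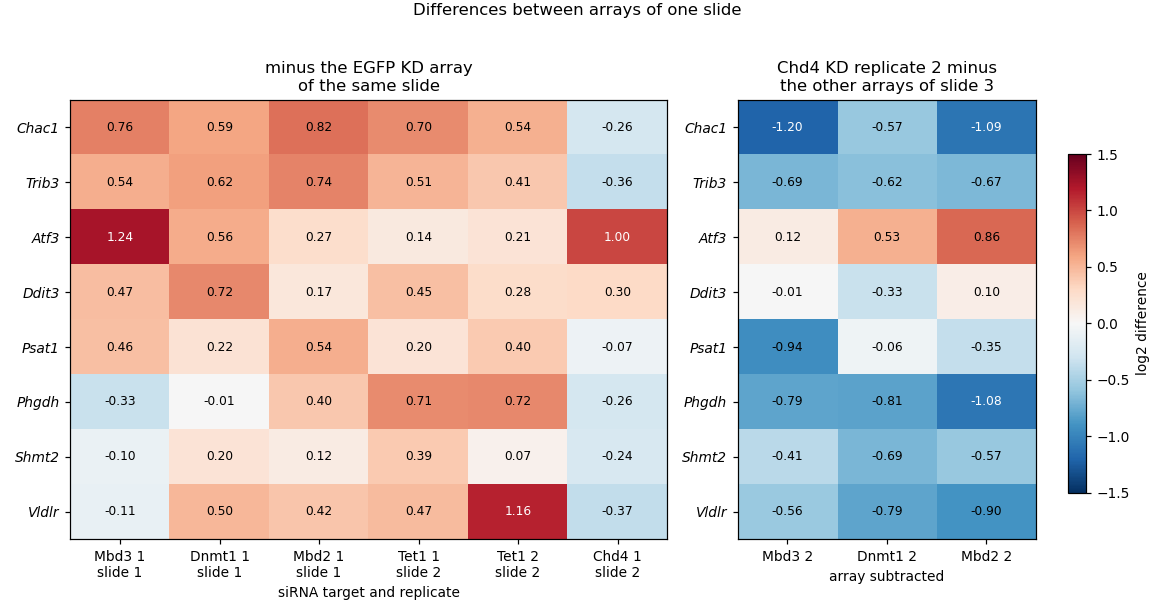
Log2 differences between arrays of 1 slide for 8 members, in colour and as numbers. On the left, each KD array of slides 1 and 2 minus the EGFP KD array of its slide; on the right, Chd4 KD replicate 2 minus the other arrays of slide 3, which has no control. Chac1 and Trib3 are positive on the left in all columns but that of Chd4 KD, and negative on the right in all 3. The columns of Mbd2 KD replicate 1 and Tet1 KD replicate 1 are the arrays with a doubtful label.

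Other genes of the pathway were read from lists. Of 27 further ATF4 target genes 25 were tested, and 22 of them were higher in Mbd3 KD than in EGFP KD, with a median difference of 0.31, where 41.7% of all genes were higher. The numbers higher were 21 in Mbd2 KD (median 0.21, 46% of all genes higher), 20 in Dnmt1 KD (0.23, 45%), 18 in Tet1 KD (0.19, 62.2%) and, with Chd4 knocked down, 14 (0.07, 47.9%). Without the 2 arrays with a doubtful label, 15 were higher in Mbd2 KD (median 0.09, 48.7% of all genes) and 19 in Tet1 KD (0.29, 62.6%). At the adjusted threshold 1 was called, Nupr1, a stress-induced chromatin protein, which rose by 1.09 in Mbd3 KD (SE 0.16, limma adjusted p = 0.0389; 0.0921 with slide as a block). Nupr1 read 1.58 and 1.51 in EGFP KD, 2.63 and 2.64 in Mbd3 KD, 2.03 and 2.17 in Chd4 KD, and between 1.95 and 2.44 in the remaining KDs, so that all 10 KD arrays were above the controls. Like Atf3 and Ddit3, and unlike Chac1 and Trib3, it was higher in Chd4 KD as well, by 0.56 (SE 0.16, limma adjusted p = 0.153).

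Of 11 amino acid transporter genes linked to ATF4, 2 were called in Chd4 KD, both lower (3.17% of all genes called). In the other KDs 0 were called. The median difference in Chd4 KD was -0.225, and 2 of the 11 were higher than in EGFP KD (47.9% of all genes). In Mbd3 KD only 6 were higher (41.7% of all genes), with a median of 0.005, where the further ATF4 targets had 0.31. The count higher was 10 for Mbd2 KD (46% of all genes, median 0.17), or 9 (0.24) once its doubtful array was left out. It was 8 for Dnmt1 KD (45%, 0.15), while Tet1 KD had 6 (62.2%, 0.03). Slc43a1, a carrier of large neutral amino acids, fell by 1.56 on the log2 scale (SE 0.16, limma adjusted p = 0.0044), from -1.26 and -1.19 in EGFP KD to -2.89 and -2.67 in Chd4 KD. Slc7a3, a carrier of arginine and other cationic amino acids, fell by 1.05 (SE 0.18, limma adjusted p = 0.0303), from 4.13 and 3.89 to 2.84 and 3.07. Slc6a9, the glycine transporter, was, of 19154 named genes compared, the gene most like the members' mean profile, at r = 0.89 over the 12 arrays, with differences of 0.78 in Mbd2 KD (0.65 without the array with a doubtful label) and -0.17 in Chd4 KD. The next were Ugt3a1 (0.889), H2bc18 (0.877), Elac1 and Zfp580 (0.876 each), and these r values describe arrays that share groups and slides.

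Of 20 further serine, glycine and folate enzyme genes, 1 was called. Aldh1l1, the cytosolic enzyme that oxidises formyl-tetrahydrofolate, rose in Chd4 KD by 1.74 (SE 0.24, limma adjusted p = 0.0112), from -0.47 and -0.50 in EGFP KD to 1.03 and 1.47, and it read 0.59 and 1.09 in Mbd3 KD (difference 1.33, adjusted p = 0.0735). The list's median lay between -0.12 and 0.04 in the 5 KDs, and in Chd4 KD 8 of the 20 were higher than in EGFP KD. Among 11 genes of the LDL receptor family and reelin pathway, Lrp1, an endocytic receptor, rose in Chd4 KD by 0.79 (SE 0.10, limma adjusted p = 0.00914) and in Mbd3 KD by 0.91 (SE 0.10, adjusted p = 0.0202), where Vldlr gave -0.41 and 0.20.

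The next 4 lists gave no call against EGFP KD. They were 20 cytosolic aminoacyl-tRNA synthetase genes and 17 genes of eIF2, its kinases, its exchange factor and its phosphatases. To these were added 21 endoplasmic reticulum genes under XBP1 and ATF6, and 11 heat shock genes. The lists are not all separate from ATF4: eIF2 and its kinases lie upstream of it, as described above. The motif TGATGNAAN lay in a window of 5 of the 12 synthetase genes with a window (4.5% of all genes). Outside Mbd3 KD and Chd4 KD, the synthetase median ran from -0.04 (Dnmt1 KD) to 0.02 (Mbd2 KD). The latter was -0.05 when the array with a doubtful label was left out. Eprs (-0.64, SE 0.58) and Iars (0.41, SE 0.24), which charge tRNAs, bounded the synthetases in Chd4 KD, and Eif2ak4 (-0.59, SE 0.18), which encodes the amino acid sensing kinase GCN2, and Eif2ak3 (0.29, SE 0.18), which encodes the endoplasmic reticulum kinase PERK, bounded the eIF2 genes there. The endoplasmic reticulum genes ran from Dnajc3 (-0.40, SE 0.26) to the chaperone gene Hsp90b1 (0.23, SE 0.29) in Mbd2 KD. In Mbd3 KD the lowest heat shock gene was Hspa1a (-0.72, SE 0.23), and the highest, Hspd1, was saturated on all 12 arrays. In Mbd3 KD the 4 list medians were -0.003, -0.03, 0.04 and -0.17. In Chd4 KD they were -0.15, -0.09, -0.07 and -0.10, with 3 of 20, 3 of 17, 8 of 21 and 3 of 11 genes higher (47.9% of all genes). The synthetase median in Chd4 KD was -0.29 against Mbd3 KD, -0.12 against Dnmt1 KD, -0.33 against Tet1 KD and -0.28 against Mbd2 KD. The endoplasmic reticulum median was -0.13 in Tet1 KD and -0.14 in Mbd2 KD, each with 5 of 21 higher (62.2% and 46% of all genes). At an unadjusted limma p under 0.05 the synthetases counted 2 higher and 0 lower in Mbd3 KD and 0 higher and 1 lower in Chd4 KD, and the endoplasmic reticulum genes 0 higher and 2 lower and 0 higher and 1 lower. The eIF2 genes counted 0 in either direction in Mbd3 KD and 1 lower in Chd4 KD, and the heat shock genes 3 lower in Mbd3 KD and 0 in either direction in Chd4 KD. Of all genes, 4.33% were higher and 5.34% lower by that criterion in Mbd3 KD, and 6.47% and 6.32% in Chd4 KD.

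Markers of some other cell types also differed in Chd4 KD and Mbd3 KD, in which Atf3 was highest, though not all in 1 direction. The summed log2 level of 8 trophectoderm markers was 2.78 to 2.93 in EGFP KD, 3.53 to 3.56 in Mbd3 KD and 3.84 to 3.91 in Chd4 KD, and at most 3.04 in the other KDs, with 6 of the 8 markers well above background on all arrays. Of these 8, 7 were higher and 2 called in Chd4 KD (3.17% of all genes called), with a median difference of 0.50. In Mbd3 KD 5 were higher and 1 called (0.771%), with a median of 0.27. Cdx2 was at the floor on all 4 arrays of these KDs. For 6 fibroblast markers the summed level was 2.12 to 2.37 in EGFP KD, 3.17 to 3.26 in Mbd3 KD, 3.24 to 3.57 in Chd4 KD and at most 2.88 elsewhere, with 5 of the 6 well above background on all arrays and Thy1 called in both. That sum rested on few of the 6: Col1a1 (2.50, limma adjusted p = 0.00197) and Thy1 (1.42, adjusted p = 0.00209) were called in Chd4 KD and Thy1 alone in Mbd3 KD (1.28, adjusted p = 0.0114), while Col1a2 (-0.01 in Chd4 KD, -0.23 in Mbd3 KD) and Col3a1 (-0.74, -0.57) were not higher in either and Twist1 was at the floor on all 4 of these arrays. The median difference over the 6 was 0.51 in Chd4 KD and -0.06 in Mbd3 KD. The summed level of 8 primitive endoderm markers was 3.08 to 3.19 in EGFP KD, 2.30 to 2.68 in Mbd3 KD and 2.59 to 2.77 in Chd4 KD. Even so, 5 of these 8 were higher in each KD (medians 0.08 and 0.31), none called. Mesoderm sums were 1.33 to 1.63, 1.74 to 2.19 and 1.55 to 2.17 in the same order. Neural sums in both KDs spanned those of EGFP KD. Of the 10 ES cell markers, 4 were higher in Mbd3 KD (median -0.04) and 2 in Chd4 KD (-0.16). The part of other cell types in the Atf3, Slc43a1, Slc7a3, Aldh1l1 and Lrp1 differences was not tested, and in bulk RNA fewer cells of a type cannot be told apart from less RNA per cell. Chac1 and Trib3 were high in Mbd3 KD and low in Chd4 KD, and the part of other cell types in their differences was not tested either.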

How the data were processed

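Per the file headers, the authors hybridised Cy3-labelled RNA of 1 sample per array to Agilent 1-colour arrays and deposited intensity values from Feature Extraction 10.7.1.1, whose processed signal is corrected for background but not scaled between arrays. Their deposited table gives log2 ratios of the KD arrays to EGFP KD, on a compressed scale and for part of the spots, which served only as an alternative. Here control spots were left out, processed signals were divided by the 75th percentile of the array, values under 0.03437 were raised to it (the highest, over the arrays, of the dimmest signal well above background), log2 was taken, and spots of a probe were averaged, which gave 39429 probes. Probes were named through RefSeq accessions (71.4% of spots), probes were kept where both arrays of at least 1 group were well above background, and each gene took its brightest probe. The 6 groups were fitted together with limma 3.58.1 in R 4.3.3 (lmFit, eBayes, Benjamini-Hochberg adjustment over 29839 genes); slide differences came from a fit with group and slide. SE and adjusted p are of these fits, and the precision is limited by 2 arrays per group. The fitting was tested on simulated data. The members, the lists and the tests were chosen with earlier results of these data known. Slides were taken from the barcode in the scanner files, and group came from the sample labels alone. Genes named beyond the members are those of the pathway lists called in a KD against EGFP KD (where none was, the highest and lowest in the KD with the largest list median), the targeted genes, and the 5 whose profile over the arrays was most like the members' mean. Alternatives changed 1 choice at a time: normalization, background correction, probe filter, probe choice, floor, variance prior, arrays in the fit, and blocks. The deposited table, run as a further alternative, differs in several of these at once. It holds no control arrays, so its ratios to EGFP KD were tested against 0, without the spread between the controls.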

Additional observations from a re-analysis of the deposited data

How the results depend on the processing

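Signs of the member differences were mostly kept under the alternatives, but calls were few and close to the threshold. With 1 array left out, members called ranged from 0 to 1 for Chd4 KD against EGFP KD, Mbd3 KD against EGFP KD, Chd4 KD against Mbd3 KD, Chd4 KD against Dnmt1 KD and slide 3 against slide 1, from 0 to 2 against Tet1 KD and from 0 to 3 against Mbd2 KD. Chd4 KD against EGFP KD held 0 member calls (from 1) under quantile normalization, normexp, the filter for probes well above background on all 12 arrays, no raised floor, a trended prior, a fit on its 4 arrays alone and without both doubtful arrays, and 3 in the deposited table, where Mbd3 KD held 4 and Dnmt1 KD 3. Chd4 KD against Mbd3 KD held 0 under normexp, no raised floor, 4 arrays alone, without both doubtful arrays and in the deposited table. Against Dnmt1 KD there was 1 with the mean of a gene's probes, 1 with slide as a block and 3 in the deposited table. Against Tet1 KD there were 0 under normexp, no raised floor, 4 arrays alone and without both doubtful arrays, 1 with the filter on all 12 arrays and 4 in the deposited table. Against Mbd2 KD there were 0 under normexp, 4 arrays alone and without both doubtful arrays, 1 with no raised floor and 4 in the deposited table. Slide 3 against slide 1 held 1 under normexp, no filter and a trended prior and 0 with no raised floor, with the filter on all 12 arrays and without both doubtful arrays, and slide 2 against slide 1 held 1 under quantile normalization. Tet1 KD and Mbd2 KD against EGFP KD held 0 under every alternative run. The counts against EGFP KD in the deposited table leave out the spread between the controls and are not like those of the other settings. Same-numbered arrays of 15 pairs of groups had correlated deviations over 0.1 in 10, from -0.04 to 0.767. The highest were those of Dnmt1 KD with Mbd3 KD (0.767) and Mbd2 KD (0.709), and of Mbd3 KD with Mbd2 KD (0.638). In these groups replicate 1 lay on slide 1 and replicate 2 on slide 3, so number and slide cannot be told apart there. The numbers were not taken as pairs in the main fit, which leaves such shared spread in its residual. With a replicate block the members called against EGFP KD were 2 in Chd4 KD, Atf3 (adjusted p = 0.0239, limma) and Shmt2 (0.0251), and 1 in Mbd3 KD, Atf3 (0.0488), and 2, 4 and 5 in Chd4 KD against Dnmt1 KD, Tet1 KD and Mbd2 KD, with 1282 genes called in Chd4 KD against EGFP KD (946 without it). The sign turned under normexp for Atf3 in Chd4 KD (-0.155), Mbd3 KD (-0.185), Dnmt1 KD (-0.62), Tet1 KD (-0.793) and Mbd2 KD (-0.705) against EGFP KD, for Vldlr in Mbd3 KD (-0.761), Dnmt1 KD (-0.25), Tet1 KD (-0.27) and Mbd2 KD (-0.537), for Psat1 in Chd4 KD (0.0194) and Shmt2 in Mbd3 KD (0.0654), and for Atf3 on slides 3 and 2 against slide 1 (0.386 and 1.05). It turned under quantile normalization for Psat1 in Chd4 KD (0.178), Atf3 in Tet1 KD (-0.119) and Shmt2 on slide 2 (0.0637), in the deposited table for Psat1 in Chd4 KD (0.00125) and Atf3 in Tet1 KD (-0.0184), with the mean of probes for Psat1 in Chd4 KD (0.0774), with slide as a block for Phgdh in Mbd3 KD (-0.0293), and without both doubtful arrays for Shmt2 in Tet1 KD (-0.00881) and Mbd2 KD (-0.147). With 1 array left out, values spanning 0 were those of Psat1 in Chd4 KD (-0.136 to 0.109), Vldlr in Mbd3 KD (-0.000865 to 0.404), Phgdh in Mbd3 KD (-0.163 to 0.405), Shmt2 in Dnmt1 KD (-0.0321 to 0.281), Tet1 KD (-0.00881 to 0.313) and Mbd2 KD (-0.147 to 0.199), and Shmt2 on slide 2 (-0.155 to 0.0841). Genes called under the other alternatives ranged from 0 to 4213 in Chd4 KD, 0 to 3412 in Mbd3 KD, 0 to 1066 in Dnmt1 KD, 0 to 56 in Tet1 KD and 0 to 30 in Mbd2 KD against EGFP KD. The cause of these changes was not tested. Atf3 and Vldlr lay near the bottom of the scale, and saturation limits Atf4 and Asns.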
